A study of Drosophila melanogaster with 4 samples.

Results

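Neuroblasts are the stem cells of the fly nervous system. At each division a neuroblast keeps its own fate and buds off a smaller ganglion mother cell, which divides once more into neurons or glia. Proteins of the apical cortex and proteins of the basal cortex make this division unequal: the apical Par complex turns on a kinase that pushes fate determinants to the basal side, and a second apical group turns the spindle so that only the basal daughter takes them. The 9 genes described here encode this machinery and were chosen by name for these roles, with earlier results of these data known. They are mira, brat and numb of the basal side, insc, pins and mud of the apical link and the spindle, and baz, par-6 and aPKC of the Par complex. All 9 were found by NCBI gene number among the 13997 genes listed in any library. The gene written raps in the chosen list is named pins in the RefSeq table used, with raps as a synonym, and is called pins below. All 9 were among the 9851 genes tested.

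RNA was sequenced from dissected larval central nervous systems of Drosophila melanogaster at 96 hours after egg laying, in 2 reprogrammed and 2 control samples that each pooled 70 to 100 nervous systems. In the reprogrammed samples repo-Gal4, a driver active in glia, expressed Egfr and PI3K92E in their constitutively activated forms. In the control samples the same driver expressed the red fluorescent protein mRFP, and all 4 samples carry the driver. The expressed products are thus directed to glia, whereas the 9 genes were chosen for their roles in neuroblasts. The tissue is a mixture of glia, neuroblasts, neurons and other progenitors. In such bulk samples fewer cells of a type and less RNA per cell cannot be told apart, nor can the activated proteins be told apart from any other difference between the fly lines. Nothing in the labels says whether the pools came from separate crosses, so p-values measure the spread between these pools, which may be technical.

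Values are the deposited FPKM, fragments per kilobase of transcript relative to the mapped total, so levels of different genes are compared per length. Each change is the reprogrammed mean less the control mean of log2(FPKM + 1), a scale that makes changes of low genes look smaller. Their standard errors, 95% intervals and Benjamini-Hochberg adjusted p come from limma fitted to all 9851 genes, two-sided, n = 2 per group, with a threshold of 0.05. Over all tested genes 12.2% passed, 8.13% lower and 4.11% higher, so 33.6% of the calls were higher. That share was 57.2% after median scaling, which sets the libraries to an equal median, 20.2% after sum scaling, which sets them to an equal total of FPKM, and 59.7% after quantile normalization. It was 75.3% after length correction, in which the trend of the changes on transcript length is taken out. All tested genes had a median change of −0.25, which became 0.06 after median scaling, −0.49 after sum scaling, −0.04 after quantile normalization and −0.05 after length correction. When the genes were divided into eighths by transcript length, the median change was 0.20 among the shortest and −0.96 among the longest. Marker lists of neighbouring tissues varied between libraries: the summed level of 7 fat body genes was 71.8 and 472 FPKM in reprogrammed and 231 and 1271 FPKM in control samples, and that of 8 muscle genes was 204 and 335 FPKM in reprogrammed and 280 and 755 FPKM in control samples. Their part in the results was not tested. Of 8 general control genes, 1 rose, Gapdh2, and none fell (median 0.10).

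The 3 basal genes mira, brat and numb fell, whereas none of the 3 Par complex genes and none of the 3 apical link and spindle genes passed the test. The difference between these groups of genes was not tested. On the log2(FPKM + 1) scale insc (−1.26) and mud (−1.41) changed nearly as much as numb (−1.47). In mean FPKM insc and mud were 3.37-fold and 4.43-fold lower in reprogrammed samples, more than numb at 2.94-fold. In all, 3 of the 9 genes were called, all lower, against a background of 8.13% lower. Of the 6 uncalled genes, insc, mud and baz had lower values in both reprogrammed samples than in either control, aPKC had higher values in both, and par-6 and pins overlapped between the groups. The values of 7 of the 9 genes did not overlap between groups, 6 lower and 1 higher, where 63.4% of all tested genes did not overlap, 40.8% lower and 22.6% higher. The median change of the 9 genes was −1.26, beside −0.25 over all tested genes. The changes ran from −2.30 for mira to 0.90 for aPKC.

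**Figure D1:**
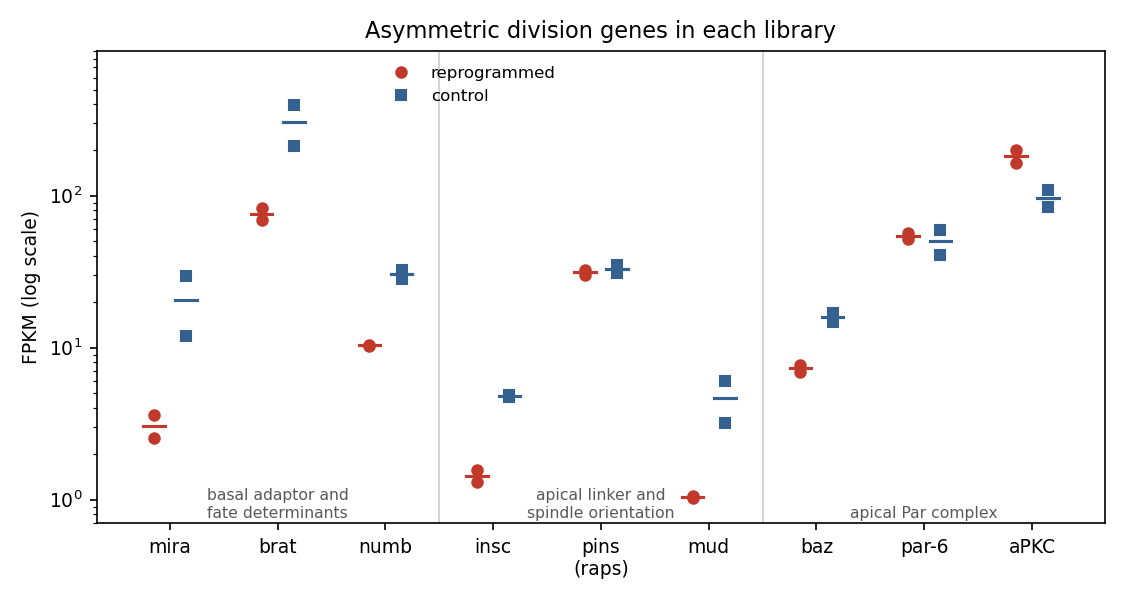
FPKM of the 9 genes on a log axis, reprogrammed samples left (circles) and control samples right (squares), each point a library and each bar the mean of 2. Reprogrammed samples lie below controls for mira (2.53 and 3.61 against 11.99 and 29.49 FPKM), brat, numb, insc, mud and baz and above them for aPKC, and the groups overlap for pins and par-6.

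Miranda, the product of mira, is the basal adaptor that carries Prospero, Brat and Staufen into the ganglion mother cell. The gene mira (NCBI gene 42379) stood at 2.53 and 3.61 FPKM in reprogrammed samples and at 11.99 and 29.49 FPKM in control samples. Both reprogrammed values lay well under the lower control, and the controls lay further apart than the groups' nearest values in FPKM. Mean levels were 3.07 ± 0.76 FPKM in reprogrammed and 20.7 ± 12.4 FPKM in control samples (SD, n = 2), 6.76-fold lower in the reprogrammed ones. The log2 change was −2.30 ± 0.49 (SE; 95% interval −3.52 to −1.09; limma adjusted p = 0.0422).

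Brat is a translational repressor that acts in the basal daughter against a return to stem cell growth. The gene brat (NCBI gene 35197) read 69.4 and 83.0 FPKM in reprogrammed samples and 398 and 213 FPKM in control samples. It was the most abundant of the 9 genes in both controls, at the 97.2 and 95.4 percentiles of the tested genes, and the second after aPKC in both reprogrammed samples, at the 84.2 and 86.4 percentiles. The control order was the reverse of that of mira: control replicate 1 was the higher for brat and control replicate 2 the higher for mira. The change of brat was −1.93 ± 0.37 (95% interval −2.85 to −0.9997; limma adjusted p = 0.0385), a 4.01-fold lower mean.

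Numb inhibits the receptor Notch in the daughter that inherits it. The gene numb (NCBI gene 34263) held 10.3 and 10.4 FPKM in reprogrammed samples and 32.5 and 28.5 FPKM in control samples. It was the most even of the 3 called genes, since its replicates lay close together in each group and the groups were far apart. Its change was −1.47 ± 0.28 (95% interval −2.17 to −0.76; limma adjusted p = 0.0385), with means 2.94-fold lower.

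These 3 calls depend on the libraries and settings used. Without reprogrammed replicate 1 the calls of mira, brat and numb were all lost. Without reprogrammed replicate 2 mira and brat stayed just under the threshold and numb did not pass. In both fits only the control pair gave a spread. There limma took the spread of each gene from the trend of spread on level over all genes, not from its own controls. Without control replicate 1 or 2 all 3 passed. Calls gained without a control library, here and below, rest on the spread of the reprogrammed pair alone, the closer one (SD of the log2 difference 0.59, against 0.88 in the control pair). With no filter on low values the limma adjusted p of mira, brat and numb were 0.0981, 0.0880 and 0.0843. Among the scalings, the call of brat was lost after median scaling (0.0927), that of mira after quantile normalization (0.0527), and that of numb after each of these (0.0683 and 0.0634). After length correction, the change of mira was −1.82 (0.0949), that of brat −0.81 (0.249) and that of numb −0.79 (0.165). Their longest annotated transcripts are 3232, 12088 and 4395 bases, and the part of transcript length in these changes was not tested beyond that fit.

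**Figure D2:**
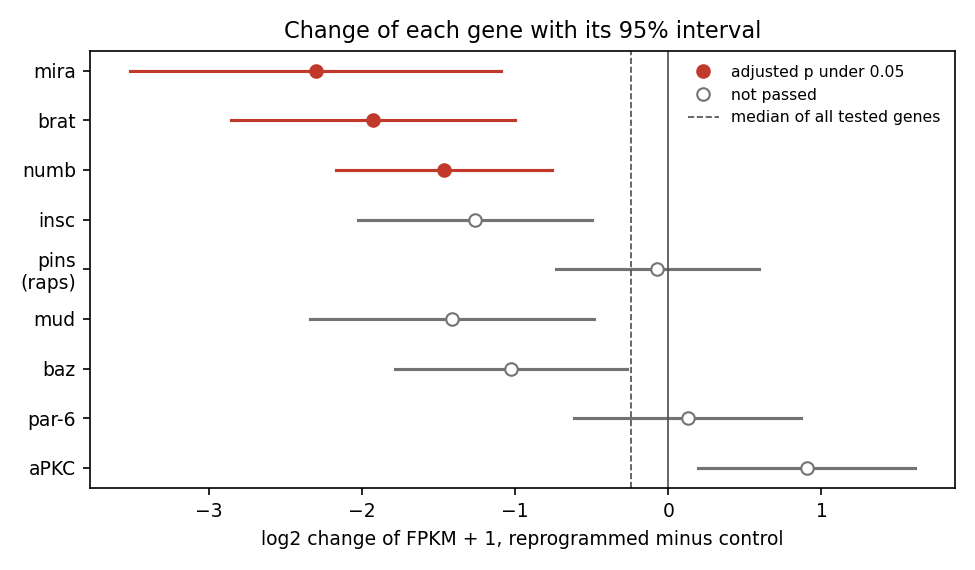
Change of each gene on the log2(FPKM + 1) scale, reprogrammed minus control, with its 95% limma interval (n = 2 per group). Filled points passed at an adjusted p under 0.05, open points did not, and the dashed line is the median of all tested genes at −0.25. The 3 filled points are mira, brat and numb; the points of pins and par-6 lie near 0 and change sign with the scaling between libraries, and that of aPKC lies to the right.

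Inscuteable links the Par complex to the spindle machinery and is made mainly in dividing neuroblasts and some sensory precursors. The gene insc (NCBI gene 37355) was low everywhere, at 1.30 and 1.57 FPKM in reprogrammed samples and 4.89 and 4.77 FPKM in control samples. With its single transcript of 3887 bases these values rest on about 55 and 67 reads in reprogrammed and 213 and 221 reads in control libraries, as read from the steps between low FPKM values. The groups were clear of each other and the replicates were close. The change of −1.26 ± 0.31 (95% interval −2.03 to −0.50) missed the threshold, with a limma adjusted p of 0.0531. It passed after sum scaling (0.0430), without control replicate 1 (0.0277) and without control replicate 2 (0.0346). The neighbouring gene sktl shares 359 exon bases with insc on the same strand, 9.24% of the exon bases of insc, and stood at 15.2 and 15.7 FPKM in reprogrammed and 8.25 and 18.7 FPKM in control samples, so some reads could belong to either.

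Pins is the cortical adaptor that, bound to Galphai, recruits the spindle protein Mud. The gene pins (NCBI gene 53569) was almost level, with 29.9 and 32.6 FPKM in reprogrammed samples and 30.9 and 35.0 FPKM in control samples. The values interleaved. Its change was −0.07 ± 0.27 (95% interval −0.74 to 0.59; limma adjusted p = 0.874), and its sign turned with median scaling (0.26), quantile normalization (0.01) and length correction (0.42), and without control replicate 2 (0.01). A missed threshold does not show equal levels, and the interval takes in changes in both directions.

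Mud, the fly NuMA, ties Pins to dynein and so to the spindle pole. The gene mud (NCBI gene 44839) was the lowest of the 9 in reprogrammed samples, at 1.03 and 1.06 FPKM, and read 3.20 and 6.06 FPKM in control samples. The reprogrammed values rest on about 70 to 97 and 73 to 101 reads, depending on the transcript length used. The groups did not overlap, though the controls were unequal. The change was −1.41 ± 0.37 (95% interval −2.34 to −0.49; limma adjusted p = 0.0613). It passed without control replicate 1 (0.0197) and not without control replicate 2 (0.0519). The longest transcript of mud has 8643 bases, and after length correction the change was −0.41 (limma adjusted p = 0.544). An annotated antisense RNA, asRNA:CR46473, covers 98.6% of the exon bases of mud. No strand-marking step is named for these libraries, so reads of mud and of its antisense partner cannot be told apart.

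Bazooka, the fly Par-3, is the scaffold that places the Par complex at the apical cortex, and it serves the same end in epithelia. The gene baz (NCBI gene 32703) read 6.90 and 7.69 FPKM in reprogrammed samples and 14.9 and 16.9 FPKM in control samples, without overlap. The change was −1.03 ± 0.31 (95% interval −1.78 to −0.27; limma adjusted p = 0.0764). It passed without control replicate 1 (0.0246) or 2 (0.0418). The longest baz transcript has 10439 bases, and after length correction the change was 0.05 (limma adjusted p = 0.946).

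Par-6 is the partner that holds the kinase of the complex in check. The gene par-6 (NCBI gene 32752) had 56.6 and 51.6 FPKM in reprogrammed samples and 59.8 and 40.9 FPKM in control samples. The reprogrammed pair lay between the controls. The change of 0.13 ± 0.30 (95% interval −0.62 to 0.87; limma adjusted p = 0.801) turned sign after sum scaling (−0.14) and without control replicate 2 (−0.14).

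Atypical protein kinase C, encoded by aPKC (NCBI gene 47594), phosphorylates Miranda and Numb and so keeps them off the apical cortex. It was the only gene of the 9 with higher values in both reprogrammed samples than in either control, at 200.2 and 164.3 FPKM, against 109.8 and 84.7 FPKM in control samples. The change was 0.90 ± 0.29 (95% interval 0.19 to 1.61), 1.87-fold in the means, with a limma adjusted p of 0.0874. It stayed positive in all 12 other settings, between 0.63 after sum scaling and 1.61 after length correction, and passed in 2 of them, after length correction (0.0491) and without control replicate 1 (0.0246). Since the median of all genes was below 0, the change of aPKC relative to that median was 1.15, and between 0.75 and 1.66 across the scalings and the length setting. The relative changes of par-6 and pins were 0.37 and 0.17.

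The order of the 9 levels differed between the groups. In both reprogrammed samples it ran aPKC, brat, par-6, pins, numb, baz, mira, insc and mud from high to low. In both control samples brat stood first, followed by aPKC and then par-6. Below these the control pair did not give a stable order: numb stood above pins in control replicate 1 and below it in control replicate 2, mira stood below baz in replicate 1 and above it in replicate 2, and insc and mud changed places in the same way.

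Ratios of FPKM within a library do not depend on the scaling between libraries, but they keep the trend on transcript length. The longest transcripts of baz (10439 bases) and mud (8643) exceed those of aPKC (4573), par-6 (3032) and pins (3279). The part of length in the ratios was not tested. The genes set in the ratios were picked with their values known, so these are descriptions, and with 2 samples per group the exact permutation test (two-sided) cannot go below p = 0.333. The level of aPKC was 29.0 and 21.4 times that of baz in reprogrammed samples, against 7.39 and 5.01 times in control samples. The ratio of par-6 to baz was 8.21 and 6.71 in reprogrammed and 4.02 and 2.42 in control samples. Within the Par complex, then, the 3 genes kept the order aPKC, par-6, baz in each library, with wider steps in the reprogrammed ones. The level of pins stood at 23.0 and 20.8 times that of insc in reprogrammed samples, against 6.32 and 7.33 times in control samples. Relative to mud it was 29.0 and 30.8 times in reprogrammed and 9.66 and 5.77 times in control samples.

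Set against dpn, a transcription factor gene of neuroblasts, insc overlapped between the groups. The ratio of insc to dpn was 0.35 and 0.25 in reprogrammed samples and 0.38 and 0.27 in control samples (exact permutation p = 0.667). The ratio of mira to dpn was 0.69 and 0.58 in reprogrammed and 0.93 and 1.68 in control samples, without overlap. Against ase and wor, also transcription factor genes of neuroblasts, mira overlapped between the groups: its ratio to ase was 1.08 and 1.00 in reprogrammed and 0.61 and 1.80 in control samples. The fate determinants were set against elav, an RNA-binding protein gene of neurons. The ratio of brat to elav was 2.79 and 2.49 in reprogrammed and 3.19 and 2.52 in control samples, and that of numb to elav was 0.41 and 0.31 in reprogrammed and 0.26 and 0.34 in control samples. Both ratios overlapped (exact permutation p = 0.667 each). Of the 18 ratios computed, 11 did not overlap between groups, where 63.4% of all tested genes taken singly did not.

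**Figure D3:**
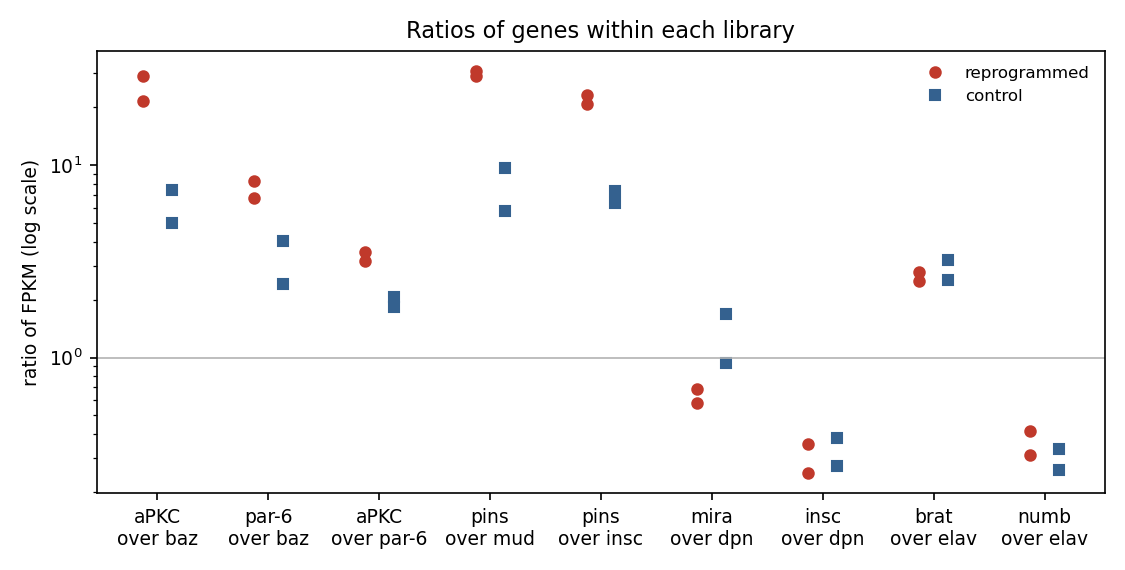
Ratios of FPKM within each library on a log axis, reprogrammed left (circles) and control right (squares). The ratios of aPKC and par-6 to baz and of pins to mud and insc are higher in both reprogrammed samples, such as 29.0 and 21.4 against 7.39 and 5.01 for aPKC over baz, while insc over dpn, brat over elav and numb over elav overlap.

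Partners of the 9 genes were taken from lists. Of 21 apical and spindle partners, 1 rose, 2 fell and 18 did not pass (median −0.39). The called share of 14.3% lay near the 12.2% of all tested genes. The riser was loco, a regulator of G protein signalling that ends the activity of Galphai and is also known from glia of the blood-brain barrier: it stood at 89.6 and 77.3 FPKM in reprogrammed samples and 11.2 and 19.1 FPKM in control samples, a change of 2.43 ± 0.34 (limma adjusted p = 0.0324). Of the 13 settings it missed the threshold in that with no filter (0.0843). Galphai, the G protein subunit that opens Pins and chosen after its values were seen, read 172 and 174 FPKM in reprogrammed and 92.2 and 87.5 FPKM in control samples (0.94 ± 0.25, limma adjusted p = 0.0624). It passed without control replicate 1 (0.0219) or 2 (0.0301). The ratio of Galphai to pins was 5.76 and 5.34 in reprogrammed and 2.98 and 2.5021 in control samples.

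The partners that fell were Khc-73, a kinesin that binds the cortical protein Dlg, and zip, the heavy chain of nonmuscle myosin. Khc-73 read 7.60 and 9.47 FPKM in reprogrammed and 36.04 and 21.75 FPKM in control samples (−1.61 ± 0.36, limma adjusted p = 0.0459). For zip the values were 19.4 and 18.1 FPKM in reprogrammed and 46.0 and 63.9 FPKM in control samples (−1.49 ± 0.30, limma adjusted p = 0.0392). Both lost their calls without reprogrammed replicate 1 (0.382 and 0.294) or 2 (0.163 and 0.217) and after length correction (0.360 and 0.279). With no filter on low values neither passed (0.0925 and 0.0843), and Khc-73 also lost its call with median scaling (0.0992) and quantile normalization (0.108). The cortical tumour suppressors l(2)gl, dlg1 and scrib, also chosen after their values were seen, had changes of −0.49, −0.75 and −0.61 and did not pass. The most abundant uncalled partners were Ggamma1, the G protein gamma subunit, at 3053 and 2727 FPKM in reprogrammed and 3153 and 1618 FPKM in control samples, and 14-3-3epsilon at 1247 and 1277 FPKM in reprogrammed and 1033 and 1803 FPKM in control samples.

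Among 14 basal determinants and carriers other than the 9 genes, 3 fell, none rose and 11 did not pass (median −0.93). The share that fell was 21.4%, beside 8.13% of all tested genes. The 3 were pros, stau and spdo. The transcription factor gene pros, whose protein and RNA travel with Miranda, read 27.0 and 34.6 FPKM in reprogrammed and 169 and 99.0 FPKM in control samples. The RNA-binding carrier gene stau stood at 15.97 and 17.25 FPKM in reprogrammed and 45.3 and 54.7 FPKM in control samples (−1.53 ± 0.28, limma adjusted p = 0.0369). The membrane protein gene spdo, which acts with Notch and Numb, read 1.87 and 2.52 FPKM in reprogrammed and 9.48 and 17.0 FPKM in control samples (−2.11 ± 0.40, limma adjusted p = 0.0384). After length correction none of the list passed: the changes of pros and stau were then −0.79 and −0.75 (limma adjusted p = 0.240 and 0.169), and spdo had an adjusted p of 0.0600. None passed with no filter either, and pros lost its call with median scaling (0.0687). Without reprogrammed replicate 1 none of the list passed, and without reprogrammed replicate 2 only pros did. With control replicate 1 left out the changes of pros, stau and spdo were −1.66, −1.66 and −2.50. The adaptor gene pon, chosen after its values were seen, whose product gathers Numb at the basal cortex, read 12.5 and 14.2 FPKM in reprogrammed and 22.4 and 40.0 FPKM in control samples and did not pass (−1.12 ± 0.37, limma adjusted p = 0.0955). The most abundant uncalled members were pum, at 61.0 and 52.8 FPKM in reprogrammed and 82.0 and 57.1 FPKM in control samples, and AP-2alpha, at 50.8 and 45.3 FPKM in reprogrammed and 65.8 and 52.7 FPKM in control samples.

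None of 24 kinase, phosphatase and centrosome genes that serve the division passed in limma on all 4 libraries as deposited (median −0.67, changes from −1.44 to 0.10). Of the 24, 8 had an unadjusted limma p under 0.05, as did 3358 of all 9851 tested genes. With sum scaling 1 was called lower, where 12.4% of all tested genes were. The polarity kinase aurA, named after its values were seen, read 25.3 and 32.1 FPKM in reprogrammed and 37.4 and 24.7 FPKM in control samples. Of the most abundant, mts, the catalytic subunit of protein phosphatase 2A, read 542 and 556 FPKM in reprogrammed and 550 and 523 FPKM in control samples, and Pp2A-29B, its scaffold subunit, 142 and 156 FPKM in reprogrammed and 143 and 203 FPKM in control samples. Among 22 mitosis and cell cycle genes none passed in limma either, with 9 at an unadjusted p under 0.05 (median −0.89). Here 4 were called lower with sum scaling and 2 with the filter of 5 FPKM, where 12.4% and 11.1% of all tested genes were. Without control replicate 1, which leaves 1 control library, more genes of both lists and of all tested genes were called lower. Both medians lay closer to that of all tested genes than that of the neuroblast identity genes did. Of 13 such identity genes 10 fell and none rose (median −2.14), and fewer passed with either reprogrammed library left out. Length correction left 6 of them called, and no filter left 0. The largest changes were those of tll (−2.71), a regulator of neural stem cell identity, the Snail family genes esg (−2.35) and sna (−2.32), and erm (−2.35), which acts in intermediate progenitors. The Notch target E(spl)mgamma-HLH, the most abundant member that did not pass, read 10.32 and 21.00 FPKM in reprogrammed and 35.30 and 61.88 FPKM in control samples (−1.60, limma adjusted p = 0.0694). The change of mira lay among those of wor (−2.29) and ase (−2.27), and that of insc lay at the upper end with those of SoxN (−1.21) and dpn (−1.46), which also did not pass.

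**Figure D4:**
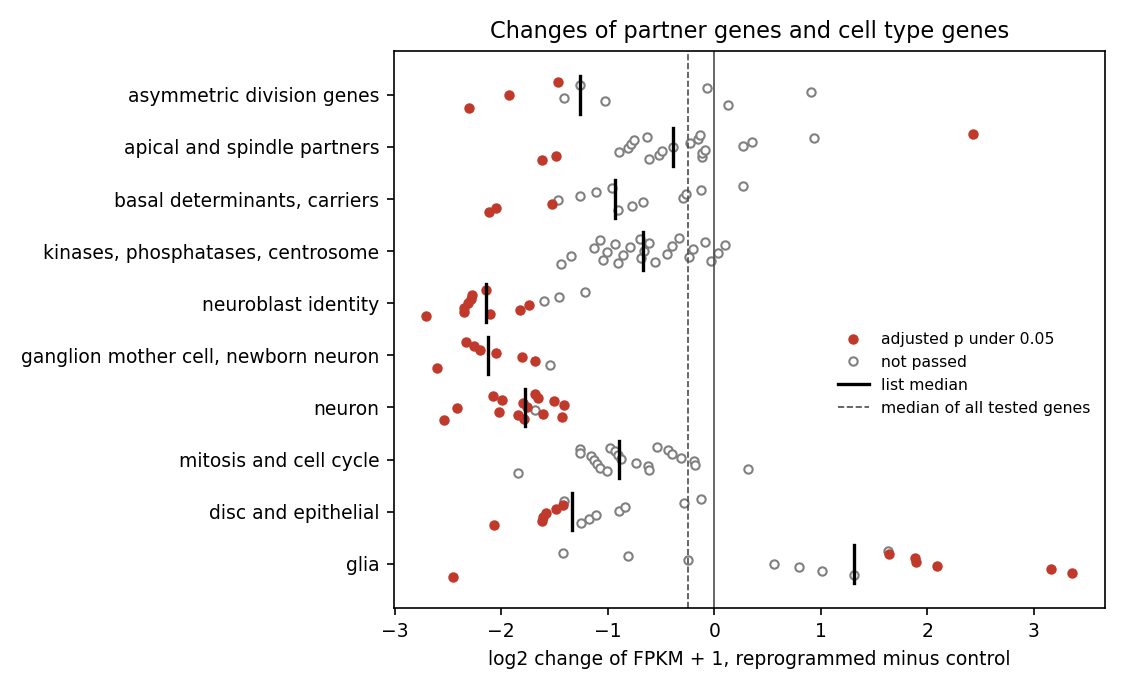
Change of each tested gene of 10 lists on the log2(FPKM + 1) scale, reprogrammed minus control. Each point is a gene, filled where its adjusted p was under 0.05, the upright bar is the list median, and the dashed line is the median of all tested genes. The 9 asymmetric division genes spread from −2.30 to 0.90, while the 13 neuroblast identity genes all lie at −1.21 or below and the glial list has a median of 1.31.

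The Par genes and numb also work in cells other than neuroblasts, so markers of those cells are given beside them. Of 16 neuron genes 15 fell and none rose (median −1.77). Of 8 ganglion mother cell and newborn neuron genes 7 fell (median −2.12). Of 15 glial genes 6 rose and 1 fell (median 1.31), and their summed level was 4089 and 3749 FPKM in reprogrammed and 1453 and 1617 FPKM in control samples. Of 14 imaginal disc and epithelial genes 6 fell (median −1.33), among them sdt, a scaffold of the apical Crumbs complex, at 4.24 and 4.0 FPKM in reprogrammed and 12.2 and 17.3 FPKM in control samples. Of 8 optic lobe neuroepithelium genes 4 fell (median −1.45). The counts of genes called lower in these lists depended on the processing. After length correction none of the neuron, ganglion mother cell, epithelial and optic lobe genes was called lower. Median scaling left 6, 4, 1 and 1 of them called lower, in that order, and quantile normalization 6, 5, 1 and 0. With either reprogrammed library left out, each of these lists had fewer genes called lower. With a pseudocount of 0.1 the optic lobe count was 2. Fewer glial genes were called higher with either reprogrammed library left out. With no filter no gene of any list was called. Neuronal, progenitor and epithelial lists thus had negative medians, as did all tested genes (−0.25), and the glial list a positive median. The glial list was mixed, with 11 of its 15 changes positive. Its called lower gene was gcm (−2.46), and Glt (−1.42), Nrx-IV (−0.81) and Inx2 (−0.25) were also negative. In the summed glial level nrv2 was the largest member in each library. The part of these lists in the changes of the 9 genes was not tested.

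The genes most like mira over the 4 libraries were found by the distance between log2(FPKM + 1) profiles centred on their own means, as a description. The closest 5 were CG17211, CG31140, Dh44, E(spl)malpha-BFM and Hug, at distances of 0.14, 0.16, 0.16, 0.20 and 0.25. Each had its higher control value in replicate 2, as mira did: CG17211 read 0.75 and 1.06 FPKM in reprogrammed and 5.49 and 13.01 FPKM in control samples. Among the other 8 genes of the machinery mud came nearest, at 0.99, followed by numb at 1.33 and insc at 1.38, and aPKC was farthest, at 3.43. With 4 libraries in 2 groups such likeness mostly restates the group difference and the gap between the controls.

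**Figure D5:**
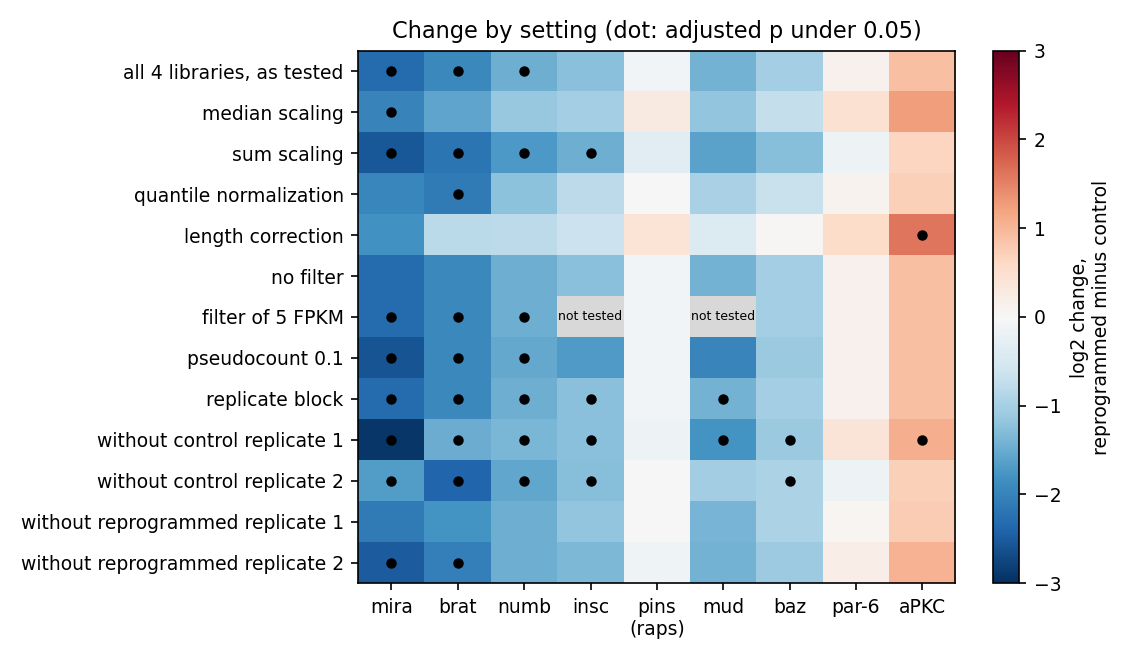
Log2 change of each gene, reprogrammed minus control, under each processing setting, with a dot where the adjusted p was under 0.05 and grey where the gene was not tested. The columns of mira, brat, numb, insc and mud are negative and that of aPKC positive in each setting in which they were tested, while pins and par-6 change sign with the scaling between libraries and baz after length correction.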

How the data were processed

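Per the file headers, the authors deposited 1 table per sample with an FPKM value per gene, rounded to 2 decimals. Libraries were made from oligo(dT)-selected, fragmented RNA with random primers, per the labels' protocols. The submitters' processing notes name Bowtie2 and HISAT; for the build, the quantifier and tool versions the sources used here give nothing, and no coordinates are printed. A gene missing from a table was set to 0. Gene numbers were named from a RefSeq table (Release 6 plus ISO1 MT), 13960 by number and 2 by transcript accession, with 35 left unnamed. Transcript lengths and exon overlaps came from an Ensembl BDGP6 annotation. Depth was read from the steps that low values of single-transcript genes take: 1 FPKM over 1 kilobase was worth 10.9 and 11.0 reads in reprogrammed and 11.2 and 11.9 reads in control libraries, with 91.8% to 92.9% of values whole within 0.15 reads, against 30.0% by chance. Counts could not be had for every gene this way, and no count model was fitted.

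The test took genes that reached 1 FPKM in 2 or more libraries, as log2(FPKM + 1), and used limma (lmFit, eBayes with a mean-variance trend), group as the only term. Settings varied were scaling, the length trend (loess on the longest transcript, span 0.5), the filter, the pseudocount, the replicate block and each library left out. The 9 genes, the lists and the ratios were chosen with earlier results of these data known. Of 194 list names, 191 matched a symbol, 2 a synonym and 1 nothing. Named genes were the 9, then in the partner and identity lists the called genes of largest change and the 2 most abundant uncalled, and the 5 nearest to mira; others are said to be chosen after their values were seen, apart from dpn, elav and markers used for comparison. Tools were R 4.3.3 with limma 3.58.1, and Python 3.11.15 with scipy 1.17.1, pandas 2.3.3, numpy 2.4.6 and matplotlib 3.10.9.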

Additional observations from a re-analysis of the deposited data

How the results depend on the processing

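The direction held in all settings tested for mira, brat, numb, aPKC, insc and mud; insc and mud were not tested under the filter of 5 FPKM. Genes of the machinery called lower numbered 1 with median scaling, 1 with quantile normalization, 0 with length correction (1 higher, aPKC), 0 with no filter, 5 with the replicate block (5 of the 24 division kinase, phosphatase and centrosome genes and 8 of the 22 mitosis genes were then also lower), and between 0 and 6 with a library left out (higher between 0 and 1), against 3 lower and 0 higher as tested. Over all genes 801 were lower and 405 higher. Lower calls numbered 439 with median scaling, 1225 with sum scaling, 249 with quantile normalization, 81 with length correction (247 higher) and 1907 with the replicate block (872 higher). With the block 19.4% of all tested genes were thus lower, the background for the block counts of 5, 5 and 8 above. In that fit, and in those without a reprogrammed library, limma took each gene's spread from the mean-variance trend alone. With no filter limma called 0 lower and 0 higher, with 3629 genes at an unadjusted p under 0.05. With a library left out lower calls ranged from 75 to 3313 and higher ones from 181 to 1265, where the spread came from a single pair. The titles number the replicates in both groups, but same-numbered samples did not deviate together (correlation −0.03 over genes), so the replicate block is given here only.

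Signs turned for these genes, none of them called on all 4 libraries as tested. Of them, limma called Ggamma1 higher without control replicate 1 (adjusted p = 0.0386) and baz lower without control replicate 1 (0.0246) or 2 (0.0418). With median scaling pins read 0.26, 14-3-3epsilon 0.23, pum 0.0697, AP-2alpha 0.0441 and Pp2A-29B 0.14. With sum scaling par-6 read −0.14 and mts −0.24. With quantile normalization pins read 0.0104 and mts −0.36. With length correction baz read 0.0451, pins 0.42, 14-3-3epsilon 0.40, pum 0.80, AP-2alpha 0.43 and Pp2A-29B 0.16. With a library left out the changes ranged from −0.14 to 0.39 for par-6, −0.16 to 0.0138 for pins, −0.13 to 0.83 for Ggamma1, −0.51 to 0.29 for 14-3-3epsilon, −0.0033 to 0.0709 for mts and −0.45 to 0.0516 for Pp2A-29B. The cause of these differences was not tested.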
